A study of Drosophila melanogaster with 6 samples.

Results

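Receptor tyrosine phosphatases of neurons and their cytoplasmic adaptors were examined in pupal brains of Drosophila melanogaster. The 8 members were the receptors Ptp69D, Ptp10D, Ptp99A, Ptp4E and Lar and the cytoplasmic proteins Liprin-alpha, trio and dock, chosen by gene name out of 17807 genes in the table. All 8 passed the filter on low counts, as did 11198 genes in all. Brains were taken 24 h after puparium formation from wild type (WT) and from TetAXXC, with 3 libraries of each. The labels give 30 brains per genotype and call the 3 replicates independent, so each library is a pool of animals. TetAXXC carries mutations in the CXXC zinc finger of Tet, made in the animal's own gene by Cas9 cutting and repair from a template in a nos-Cas9 stock, after which the DsRed marker was excised. The change is therefore present in every cell and is not limited to neurons. The labels do not name the WT stock or the sex of the pupae. The stated purpose of the study was to compare gene expression between the genotypes, with axon guidance named in its title.

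Receptor tyrosine phosphatases are surface proteins whose outer part holds immunoglobulin or fibronectin domains and whose inner part removes phosphate from tyrosines. In the fly they are found largely on axons and growth cones, where they work against tyrosine kinases such as Abl and steer motor, photoreceptor and midline axons. Loss of a single receptor often has mild effects because the receptors overlap in function. Inside the axon Lar binds Liprin-alpha, a scaffold that also helps to build the presynaptic active zone. The exchange factor trio activates Rac-type GTPases, and dock, the fly Nck, links tyrosine-phosphorylated receptors to the actin machinery.

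The libraries held 17861742 to 19521285 gene counts. Expression is given in CPM, the normalised read count of a gene as a share of its library, scaled to a common library size. The edited gene Tet lay between 680.2 and 852 CPM in WT and between 798 and 941 CPM in TetAXXC, and counts per gene do not resolve the edited domain. Genes of brain cells were present, with elav, a neuronal RNA-binding protein gene, at 434 to 522 CPM, and repo, a glial transcription factor gene, at 141 to 160.3 CPM. The summed level of 9 neuron markers was 5219 to 6571 CPM in WT and 5506 to 6537 CPM in TetAXXC, with 0 of 9 past the threshold. Of 7 glia markers 4 were lower in TetAXXC, and their sum was 1053 to 1073 CPM against 969 to 1017 CPM. All 13 testis markers were higher in TetAXXC, at a sum of 148 to 466 CPM against 14.5 to 40.4 CPM. Of 6 fat body markers 2 were lower and of 6 neuroblast markers 1 was higher, while 0 of 8 muscle and 0 of 5 hemocyte markers passed the threshold. Markers of other tissues were also well counted. The fat body sum was 1173 to 1616 CPM in WT and 970 to 1405 CPM in TetAXXC. For muscle it was 453 to 588 CPM against 440 to 483 CPM, and for hemocytes 313 to 331 CPM against 297 to 309 CPM. The part of these markers' cells in the results that follow was not tested. In bulk tissue, fewer cells of a type and less RNA per cell cannot be told apart.

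None of the 8 genes differed between the genotypes at an edgeR adjusted p under 0.05. Of all genes tested 15.2% did, and 7.61% of those that averaged 4 log2 CPM or more, as all 8 genes did. Among 8 genes, a count of 0 is near that 7.61% and is not read as a contrast with other genes. The count behind the 15.2%, 1707 genes, was 54 without WT replicate 2, 104 without WT replicate 3 and 130 with limma-voom. That share therefore rests on these libraries and this test. At an unadjusted edgeR p under 0.05 the count was also 0 of 8, against 26.4% of all genes. Of the 6320 genes that averaged 4 log2 CPM or more, 1231 had such a p. The log2 fold changes of TetAXXC over WT ran from -0.10 for Ptp99A to 0.03 for Ptp10D, with a median of -0.05. The median was 0.0041 over all genes tested and -0.02 over those that averaged 4 log2 CPM or more. Every 95% interval lay between -0.26 and 0.22 on the log2 scale. As a change in percent of the WT level, the intervals reached -16.2% for Ptp99A and 16.7% for Ptp10D, and larger differences in these gene counts lay outside them. DESeq2 called dock alone, as given with its values.

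**Figure D1:**
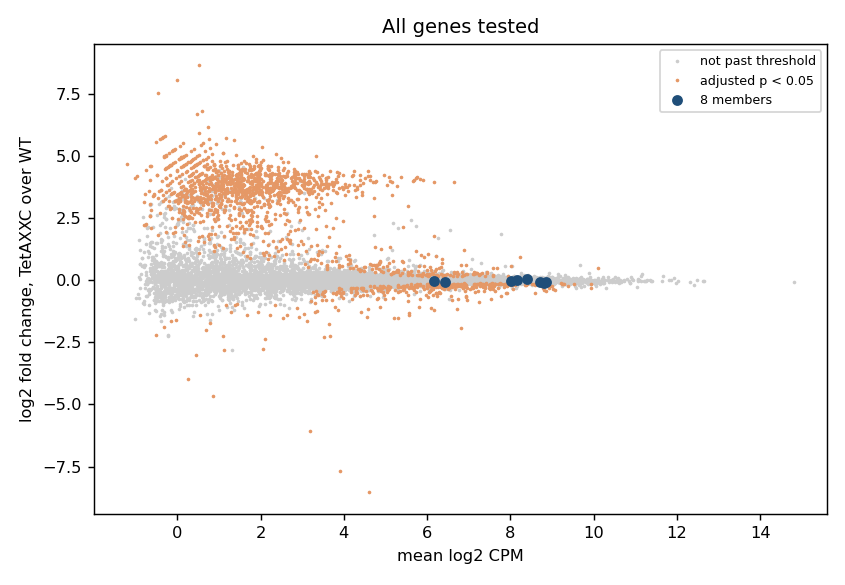
Log2 fold change of TetAXXC over WT (vertical axis) against mean log2 CPM (horizontal axis) for the 11198 genes tested. Grey points did not pass the threshold and orange points had an adjusted p under 0.05. The 8 blue points of the phosphatase group lie close to 0, at 6 log2 CPM or higher.

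The first receptor, Ptp69D (FBgn0014007, chromosome 3L, 12734945 to 12741568, plus strand), is known for guiding motor and photoreceptor axons. Its level was 289.6, 277 and 295 CPM in WT replicates 1 to 3 and 276, 274 and 309 CPM in TetAXXC replicates 1 to 3. The groups overlapped, with both the lowest and the highest library in TetAXXC. The means were 287 ± 8.89 and 287 ± 19.6 CPM (SD, n = 3 each). They differed by -0.0033 on the log2 scale with a standard error of 0.06, and the edgeR adjusted p was 0.983. Its direction changed in 6 of 16 alternative settings, so no direction is given for it.

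Ptp10D (FBgn0004370, chromosome X, 11622015 to 11677338, plus strand) acts with Ptp69D in keeping axons from crossing the midline. It was counted at 342, 309 and 342 CPM in WT and at 342, 303 and 372 CPM in TetAXXC. TetAXXC again held both the lowest and the highest library. The means were 331 ± 19.5 and 339 ± 34.4 CPM (SD, n = 3 each), a log2 difference of 0.03 (95% interval -0.16 to 0.22, edgeR adjusted p = 0.870). The difference was -0.039 without TetAXXC replicate 3 and -0.018 without WT replicate 2.

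Ptp4E (FBgn0004368, chromosome X, 4939128 to 4955916, plus strand) is the closest relative of Ptp10D and overlaps with it in function. It was at 87.4, 84.3 and 89.8 CPM in WT and at 86.0, 80.7 and 83.7 CPM in TetAXXC. The groups overlapped. TetAXXC minus WT was -0.06 on the log2 scale (95% interval -0.16 to 0.04, edgeR adjusted p = 0.433). Per kb of exon, Ptp10D was 3.04 to 3.69 times as abundant as Ptp4E across the 6 libraries. That ratio was 3.15 ± 0.107 in WT and 3.37 ± 0.292 in TetAXXC (SD, n = 3 each), a difference smaller than the spread in TetAXXC.

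Ptp99A (FBgn0004369, chromosome 3R, 29377646 to 29487131, plus strand) works against Ptp69D on some motor axons. It had 496, 435 and 459.7 CPM in WT and 418, 415 and 463 CPM in TetAXXC. TetAXXC replicates 1 and 2 lay below every WT library, but replicate 3 lay above all WT libraries except replicate 1. The means were 464 ± 30.8 and 432 ± 27.0 CPM (SD, n = 3 each). This difference of -0.10 on the log2 scale, the lowest among the 8 genes, had a standard error of 0.07 (edgeR adjusted p = 0.411). Leaving out WT replicate 1 gave -0.052, and leaving out TetAXXC replicate 3 gave -0.15. Of its exons, 17.2% lie opposite exons of CG2321, a gene of 246 to 309 counts per library. The library kit marked strand, and the strand setting of the counter is not given in the sources used here. Of 144 genes lying wholly opposite exons of other genes, 106 had at least 10 counts summed over the libraries. Of 478 covered in this way on their own strand, 0 did. This is what a count made by strand gives.

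Lar (FBgn0000464, chromosome 2L, 19586623 to 19732069, plus strand) guides motor axons and holds photoreceptor R7 axons in their target layer. It was at 75.0, 67.7 and 73.8 CPM in WT and at 69.7, 70.9 and 71.2 CPM in TetAXXC. All TetAXXC libraries fell inside the WT range. The means were 72.2 ± 3.89 and 70.6 ± 0.790 CPM (SD, n = 3 each), a log2 difference of -0.03 (95% interval -0.15 to 0.08, edgeR adjusted p = 0.766).

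The counts of Lar may come from a small part of the gene. A second gene model on the same strand, CG46244 (FBgn0267964, chromosome 2L, 19606569 to 19731561), lies wholly inside exons of Lar and takes up 83.6% of their length. CG46244 had 0 counts in all 6 libraries. In the whole table, there were 478 genes that, like CG46244, had no exon base outside a same-strand neighbour, and 0 of them had at least 10 counts summed over the libraries. Of 144 genes covered in this way by a neighbour on the opposite strand, 106 did. This is what a counter gives that drops reads shared by genes of the same strand. How the authors' counter treated shared reads is not given in the sources used here. If they were dropped, the Lar count rests on 1700 of its 10337 bp of exon. These 1700 bp fall in 7 pieces, 1348 bp of them untranslated and 352 bp coding. The longest piece, 508 bp at 19731562 to 19732069, extends the 3′ end and is present in 2 of 7 annotated Lar transcripts. The others are in 1 to 3 of the 7 transcripts. In that case the comparison of genotypes for Lar concerns these alternative exons and does not cover most of its coding sequence. None of the other 7 genes shares exon sequence with a gene on its own strand.

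**Figure D2:**
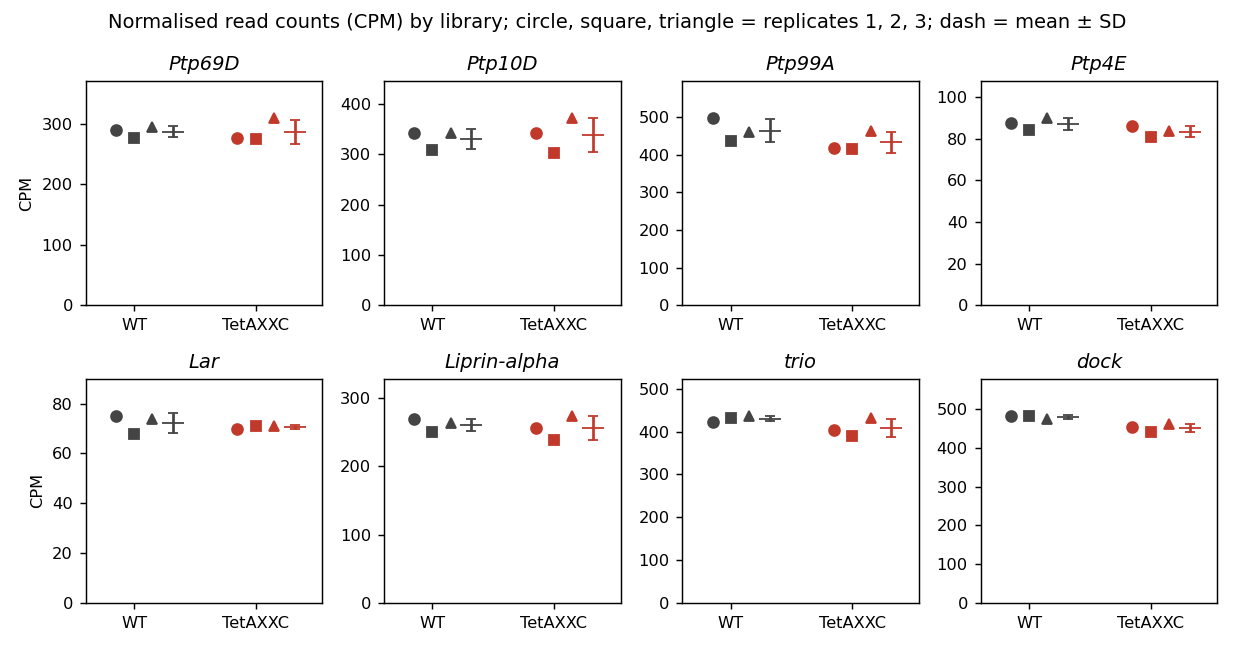
Normalised read counts (CPM, vertical axes from 0) of the 8 genes in WT (grey) and TetAXXC (red) libraries, with circles, squares and triangles for replicates 1, 2 and 3 and a dash with bars for the mean ± SD. The groups overlap in every gene except dock, where the 3 TetAXXC libraries lie at 441 to 463 CPM, below the 3 WT libraries at 475 to 483 CPM.

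Of the cytoplasmic proteins, the scaffold gene Liprin-alpha (FBgn0046704, chromosome 2L, 6723903 to 6732766, plus strand) was at 269, 251 and 263 CPM in WT and at 256, 239 and 273 CPM in TetAXXC. The WT libraries fell inside the range of TetAXXC. The log2 fold change was -0.03 (95% interval -0.16 to 0.11, edgeR adjusted p = 0.854).

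The exchange factor gene trio (FBgn0024277, chromosome 3L, 995982 to 1034875, minus strand) had 424, 431 and 436 CPM in WT and 404, 389 and 432 CPM in TetAXXC. Only TetAXXC replicate 3 reached the WT range. The means were 430.2 ± 6.33 and 408 ± 21.8 CPM (SD, n = 3 each), a log2 difference of -0.08 (standard error 0.05, edgeR adjusted p = 0.389). Without TetAXXC replicate 3 the change was -0.12 with an adjusted p of 0.123. A stretch of 179 bp of its exons lies opposite CG9205.

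The adaptor gene dock (FBgn0010583, chromosome 2L, 825969 to 833241, plus strand) was the only one of the 8 whose groups did not overlap. Non-overlap was seen in 32.7% of all genes tested (20.4% higher and 12.4% lower in TetAXXC) and in 25.9% of those that averaged 4 log2 CPM or more, so 1 of 8 is no more than the background. It had 482, 483 and 475 CPM in WT and 453.5, 441 and 463 CPM in TetAXXC. The means were 479.8 ± 4.53 and 452 ± 11.1 CPM (SD, n = 3 each). The log2 difference was -0.09 with a standard error of 0.04 and a 95% interval from -0.17 to 0.0012. The unadjusted p was 0.0525 and the edgeR adjusted p 0.196. With the DESeq2 Wald test the change was -0.096 and the adjusted p 0.0395, which is past the threshold; DESeq2 called 2402 genes in all. In every other setting the adjusted p of dock lay above the threshold, and the fold change stayed negative, between -0.12 and -0.051.

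All 8 intervals of the difference held 0. Counting error, set by the mean count per library, ran from 1.07% of the level for dock to 2.74% for Lar. The SD between replicates was 0.943% of the mean for dock to 6.64% for Ptp99A in WT. In TetAXXC it was 1.12% for Lar to 10.2% for Ptp10D. The fitted biological coefficient of variation ran from 0.0425 for dock to 0.0749 for Ptp10D, and only that of Ptp10D lay above the trend over genes of like abundance, which ran from 0.0613 to 0.0749 at the levels of the 8 genes.

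The order of the 8 levels was compared within libraries, per kb of merged exon, since longer transcripts give more reads. The adaptor dock stood at the top with 125 ± 4.52 CPM per kb (SD, n = 6), more than any receptor. Ptp69D followed at 55.5 ± 2.64, Ptp99A at 49.0 ± 3.40, Liprin-alpha at 41.6 ± 2.04, Ptp10D at 38.5 ± 2.91 and trio at 37.5 ± 1.68 CPM per kb. Ptp4E was at 11.8 ± 0.437 and Lar at 6.91 ± 0.257 CPM per kb. Of 7 neighbouring pairs, 6 were ordered the same way in 6 of 6 libraries, each with a two-sided exact sign-flip permutation p of 0.0313, the smallest that 6 libraries allow, and an adjusted p of 0.0365. These p-values treat the 6 libraries as separate. Deviations of same-numbered libraries correlated across genes at 0.343 to 0.652, but without values for other pairs of libraries this does not establish pairs. With signs flipped by the 3 replicate numbers, no exact p under 0.25 is possible. The neighbours were also set by the mean levels of these same libraries. A length divides all 6 libraries alike, so the p-values do not cover the choice of length. Per kb of merged exon, Ptp10D and trio did not differ beyond their spread, with Ptp10D higher in 5 of 6 libraries and an exact permutation p of 0.313. On this scale dock ranked above 96.2% of the genes tested, Ptp69D above 88.2%, Ptp4E above 50.2% and Lar above 38.6%.

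The place of Lar in that order depends on the length used. Per kb of exon not shared with CG46244, a length chosen after seeing the data, Lar was at 42.0 ± 1.56 CPM per kb (SD, n = 6) and moved from the last to the fourth place. There it did not differ from Liprin-alpha beyond the spread, being higher in 3 of 6 libraries (exact permutation p = 0.656), and the lowest place passed to Ptp4E. Among the 5 receptors, Lar made up 4.01% to 4.53% of the summed level per kb with the merged length and 20.3% to 22.4% with the unshared length. With the unshared length Ptp69D made up 27.2% to 29.0%, Ptp99A 23.9% to 26.4%, Ptp10D 18.7% to 20.6% and Ptp4E 5.60% to 6.22%. The unshared pieces belong to only some Lar transcripts, and reads that cross from them into shared exons may be missing, so neither value is the level of the whole gene. With the longest coding sequence as length, also chosen after seeing the data, Ptp99A came above Ptp69D and trio above Ptp10D. Both of these reversed orders had an exact sign-flip permutation p of 0.0313. Liprin-alpha, at 70.9 CPM per coding kb, also came above Ptp69D, at 65.4. That pair was not tested, since the test took only neighbours in the merged-exon order. Ptp99A has 4191 bp of coding sequence in 9139 bp of exon.

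**Figure D3:**
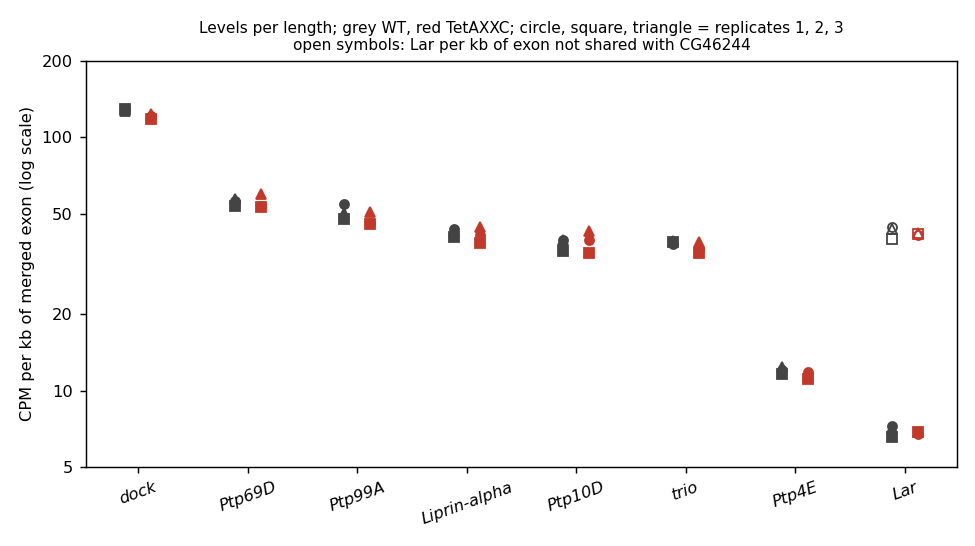
Levels of the 8 genes in CPM per kb of merged exon (log axis) in WT (grey) and TetAXXC (red) libraries, with circles, squares and triangles for replicates 1, 2 and 3. Open symbols give Lar per kb of exon not shared with CG46244, at about 42.0 against 6.91 CPM per kb; dock lies highest at 125 and Ptp4E at 11.8 CPM per kb.

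A list of 45 partner genes of the receptors and adaptors was read from the same model. All 45 were tested, of which 0 rose and 1 fell, against 12.1% and 3.17% of all genes tested. Of genes that averaged 4 log2 CPM or more, as 43 of the 45 did, 3.02% rose and 4.59% fell, so the partners' counts are near that background. Their median log2 fold change was -0.03 and 68.9% were negative, against -0.02 and 58.1% for genes of that abundance. With the replicate number as a block, 3 partners fell and 0 rose, where 5.31% and 15.8% of all genes did. After correcting each library for its dependence on gene length (the length trend), a setting chosen after seeing the data, 2 rose and 0 fell, against 13.5% and 3.46% of all genes. For the block and the length trend, shares among genes that averaged 4 log2 CPM or more were not computed. With shares of all genes alone, no depletion is read from these counts.

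The gene that fell was ena, which encodes an actin-filament elongation factor that binds Lar and Abl. It was at 499, 476 and 499 CPM in WT and at 414, 448 and 422 CPM in TetAXXC, and the groups did not overlap. On the log2 scale ena fell by 0.20 (edgeR adjusted p = 0.0296). The call held in 7 of 16 alternative settings, and among the 6 that left out a library it held only without TetAXXC replicate 2. In those 6 its adjusted p ranged from 0.0160 to 0.111. Of the 10 GTPase and actin effector genes in that group it was the only one called. Rac1, a GTPase activated by trio, averaged 277 ± 9.87 CPM in the WT libraries and 296 ± 4.05 CPM in those of TetAXXC (SD, n = 3 each). The log2 difference was 0.09 (edgeR adjusted p = 0.178). It passed only in both settings with the length trend removed, with adjusted p of 0.0349 and 0.0322.

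Of 11 ligands and surface partners, 0 passed the threshold and 10 had a negative log2 fold change. Among all genes that averaged 4 log2 CPM or more, 58.1% were negative. Of the 10, Dscam1 (-0.00019), fra (-0.00057), robo1 (-0.0032) and dally (-0.0092) lay close to 0. Each of these changed sign in 7 or 8 of 16 alternative settings, so no shared fall is read from the count. The largest difference of the 11 was in sas, which encodes a ligand of Ptp10D. It was at 87.3, 92.4 and 110.6 CPM in WT and at 74.7, 67.2 and 84.4 CPM in TetAXXC, without overlap. The difference was -0.36 on the log2 scale (edgeR adjusted p = 0.0767). With the replicate block it was also -0.36 and was past the threshold (adjusted p = 0.00143). The DESeq2 Wald test gave an adjusted p of 0.00208. Of 16 alternative settings sas passed in 3 and did not in 13, among them limma-voom (0.130) and each setting that left out a library (0.0545 to 0.156). The proteoglycan ligands of Lar also did not pass. The syndecan gene Sdc was at 694 ± 37.5 and 662 ± 18.3 CPM, and the glypican gene dlp was at 194 ± 24.1 and 221 ± 5.75 CPM (SD, n = 3 each), with adjusted p of 0.486 and 0.233 from edgeR.

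Of 6 other phosphatase genes, 0 passed the threshold. The receptor genes Ptp36E and Ptp52F were scarce in these brains, at 24.5 ± 1.99 and 1.09 ± 0.109 CPM in WT (SD, n = 3 each). The interval for Ptp52F ran from -0.45 to 1.43 on the log2 scale, and TetAXXC replicate 3, at 2.34 CPM, stood above the other 2 TetAXXC libraries at 1.15 and 1.11 CPM. IA-2, which encodes a transmembrane protein of the phosphatase family, averaged 389 ± 28.9 CPM in the WT libraries and 417 ± 21.4 CPM in those of TetAXXC (SD, n = 3 each). The edgeR adjusted p for this log2 difference of 0.10 was 0.411. It was 0.0243 with the length trend removed and 0.0177 with the replicate block added to that.

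Neither the 7 cytoplasmic kinases nor the 3 receptor kinases held a gene past the threshold. Abl, the kinase that opposes these phosphatases in axons, was at 653 ± 22.3 and 636 ± 33.5 CPM (SD, n = 3 each), with an edgeR adjusted p of 0.746. Of 5 Liprin-alpha partners 0 passed. Among these, the fly Syd-1 gene RhoGAP100F, which acts with Liprin-alpha at the active zone, was at 678 ± 62.5 and 600.0 ± 52.2 CPM (SD, n = 3 each). For this log2 difference of -0.18 the edgeR adjusted p was 0.265, and under the replicate block it was 0.0209. The remaining 3 partner genes, drk, Sos and p130CAS, were also not called.

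**Figure D4:**
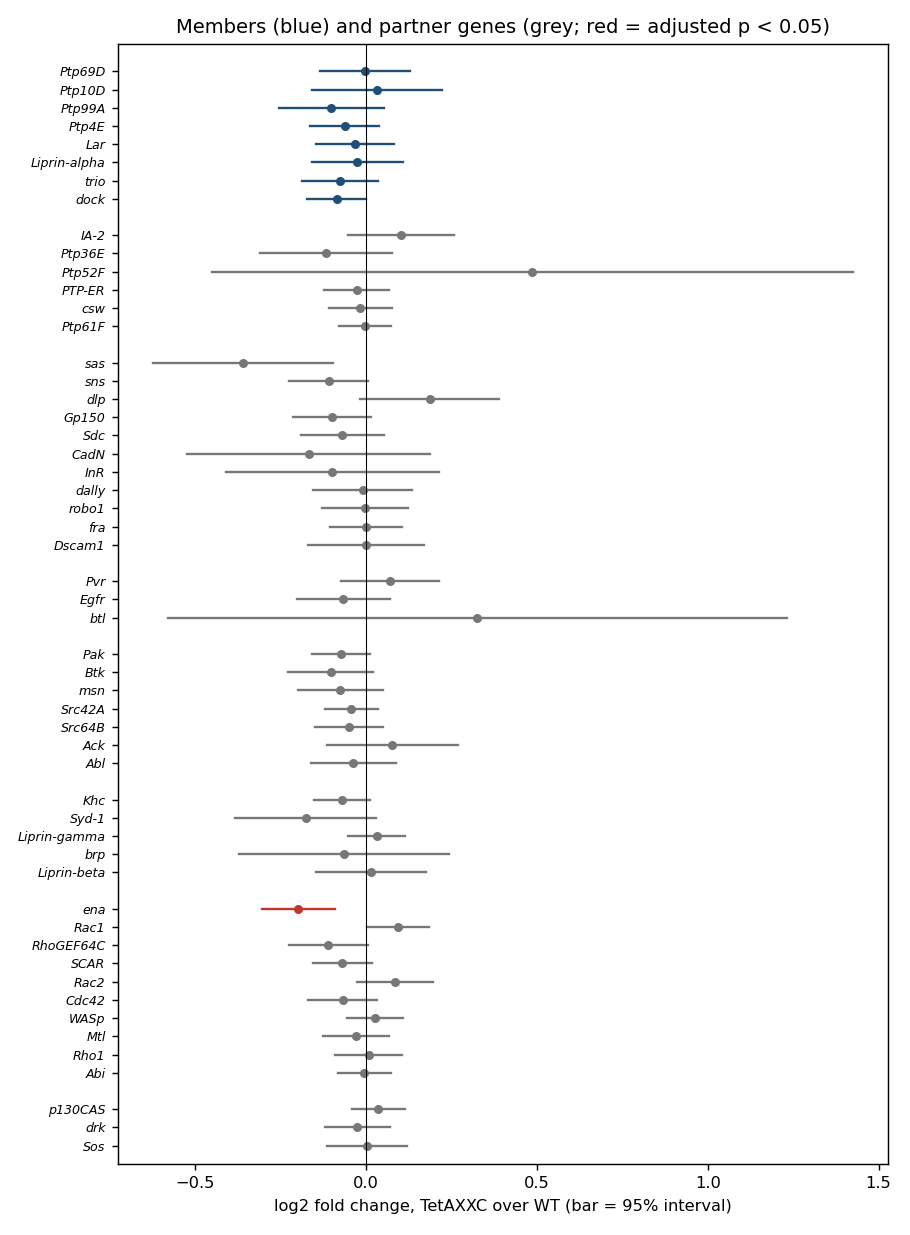
Log2 fold change of TetAXXC over WT (horizontal axis, bars are 95% intervals) for the 8 genes of the phosphatase group (blue) and 45 partner genes (grey), grouped by role. Only ena (red), at -0.20, had an adjusted p under 0.05; the widest intervals belong to the scarce genes Ptp52F and btl.

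Several of the 8 genes were high or low in the same libraries of a genotype. In TetAXXC, replicate 3 was the highest library for 7 of 8 genes and replicate 2 the lowest for 7 of 8. Over all 6320 genes that averaged 4 log2 CPM or more, those shares were 31.6% and 33.9%. In WT, replicate 2 was the lowest for 6 of 8, against 35.4% of those genes, and dock and trio were exceptions. Ptp4E was highest in TetAXXC replicate 1, and Lar hardly moved within TetAXXC, from 69.7 to 71.2 CPM. The summed CPM of the 8 genes was 2465, 2337 and 2434 in WT replicates 1 to 3 and 2305, 2212 and 2467 in TetAXXC replicates 1 to 3. The neuron markers were lowest in the same libraries, at 5219 CPM in WT replicate 2 and 5506 CPM in TetAXXC replicate 2, and were 6537 CPM in TetAXXC replicate 3. When each library was scaled to these markers, the log2 fold changes of the 8 genes lay between -0.062 and 0.069 and none was called. The part of neuron content in the spread was not tested.

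**Figure D5:**
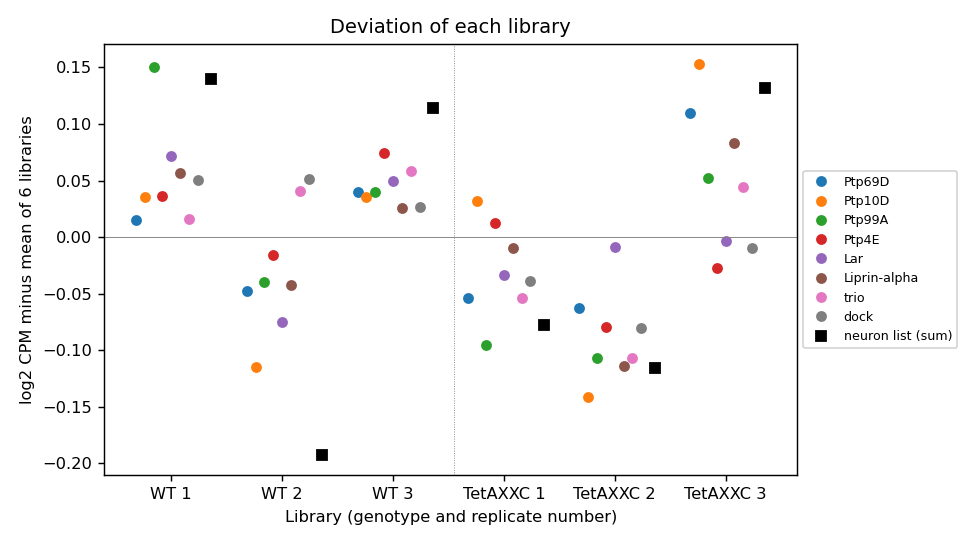
Deviation of each library from the mean of the 6 libraries in log2 CPM (vertical axis) for the 8 genes (coloured circles) and the summed neuron markers (black squares). Replicate 2 lies low for most genes in both genotypes, and TetAXXC replicate 3 lies high for most genes; dock and trio lie above 0 in WT replicate 2.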

How the data were processed

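The authors deposited a table of unnormalised counts, whole numbers for each gene in each of 6 libraries. Per the file headers it also gives the coordinates of the exons and their merged length. The submitters' processing notes name Trimmomatic 0.39, HISAT2, SAMtools, featureCounts and DESeq2, and the builds BDGP6 and dm6. Coordinates are those of the deposited table, and for the 8 genes they equal the Ensembl annotation of BDGP6. Per the labels' protocols, poly(A) RNA was made into dUTP strand-marked libraries from 30 brains per genotype, in 3 replicates called independent.

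Low genes were removed with filterByExpr, set to a minimum count of 10 and a minimum total of 15. Genotype was tested with edgeR 4.0.16 in R 4.3.3 (TMM scaling, glmQLFit with legacy dispersion, glmQLFTest), two-sided, with Benjamini-Hochberg adjustment over 11198 genes and a threshold of 0.05. Intervals come from the standard error and the degrees of freedom of the model. On simulated counts of 11364 genes, 97% of 200 genes changed by 1 on the log2 scale were recovered, with 13 false calls. No libraries agreed within sampling noise.

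Alternatives were DESeq2 1.42.0 (Wald test, and its size factors in edgeR), limma-voom 3.58.1, upper-quartile factors, scaling to 9 neuron markers, no filter, genes of at least 4 log2 CPM alone, the replicate block, each library left out, and removal of each library's trend with gene length. The last, and the coding and unshared exon lengths, were chosen after seeing the data. The main test held genotype alone and did not pair the libraries. Replicate numbers entered the genotype test only in the alternatives with a block. That block was tried because deviations from the group means correlated across genes at 0.652, 0.419 and 0.343 for numbers 1, 2 and 3. Correlations between libraries of different numbers are not given, so these values do not establish pairs.

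The genes named were the 8 members, partners past the threshold, the 3 partners with the smallest p, genes overlapping a member, and for each member the gene most like it. Other partners in the text were chosen after their values were seen. Members and lists were chosen with earlier results of these data known. Sequences of the genes were not used here.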

Additional observations from a re-analysis of the deposited data

How the results depend on the processing

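Of 80 values of the 8 genes under alternatives that kept all 6 libraries, 70 kept direction and side of the threshold, 9 changed sign and 1 (dock, DESeq2 Wald test, -0.096) passed the threshold. Each value that changed sign was close to 0, and none of these 9 was called. For Ptp69D these were 0.014 with upper-quartile factors, 0.032 scaled to neuron markers, 0.016 among genes of at least 4 log2 CPM, 0.012 with the length trend removed and 0.011 with the length trend removed and the replicate block. For Lar they were 0.011 with neuron scaling, 0.0045 with the length trend removed and 0.0031 with the block added, and for Liprin-alpha 0.011 with neuron scaling. With a library left out, 45 of 48 values kept both and 0 were called. Ptp69D then ranged from -0.060 to 0.022 and Ptp10D from -0.039 to 0.077. The scalings moved the median of all genes to at most 0.041. The replicate block changed no call of the 8 genes, with adjusted p from 0.160 to 0.959.

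The background count of 1707 changed genes (1352 higher, 355 lower) moved to 130 with limma-voom (56 higher, 74 lower) and to 268 among genes of at least 4 log2 CPM (146 higher, 122 lower). The lower genes numbered 63 with neuron scaling, 595 with the replicate block and 725 with the DESeq2 Wald test. With a library left out, the count ran from 54 without WT replicate 2 to 2095 without TetAXXC replicate 2, with 18 to 1653 higher and 36 to 442 lower. Without WT replicate 3 it was 104. Partners that fell numbered 0 with neuron scaling, limma-voom, the length trend removed or genes of at least 4 log2 CPM, 2 with DESeq2, 3 with the block, alone or with the length trend removed, and 0 to 1 with a library left out. Partners that rose numbered 2 with the length trend removed, with or without the block. The cause was not tested.

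In the order of levels, log2 differences with the longest coding sequence were -0.71 for Ptp69D over Ptp99A and -0.14 for Ptp10D over trio, and with unshared exon length -1.83 for Ptp4E over Lar. With a library left out the smallest exact p is 0.0625, so no pair can pass. The differences then ranged from 1.15 to 1.19 for dock over Ptp69D, 0.17 to 0.21 for Ptp69D over Ptp99A, 0.22 to 0.25 for Ptp99A over Liprin-alpha, 0.10 to 0.13 for Liprin-alpha over Ptp10D, 1.65 to 1.68 for trio over Ptp4E and 0.76 to 0.79 for Ptp4E over Lar. Levels per length of RefSeq protein were not run. The scarce partners Ptp52F and btl, at about 1 to 3 CPM, had the widest intervals, and whether depth or replicate spread sets them was not tested.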

Other observations

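The genes whose log2 CPM followed each member most closely over the 6 libraries were found among 4783 genes of at least 5 log2 CPM, as a description. Each is the highest correlation among so many genes over only 6 libraries, so values near 1 are easily reached. Shared regulation was not tested. Ptp69D was most like robo3, a gene of the Slit receptor family, with a Pearson correlation of 0.998. Ptp10D was most like Ptpmeg2, a cytoplasmic phosphatase gene, at 0.988. Liprin-alpha was most like Thd1 at 0.998, Ptp99A like Cals at 0.987 and trio like Ns1 at 0.992. Ptp4E was most like S6KL at 0.982, dock like Eato at 0.996 and Lar like bip2 at 0.955, the weakest of the 8. Within the group the closest pair was Ptp10D and Liprin-alpha, at 0.923.

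Exon sequence shared with a gene on the same strand was also found in other genes of the lists. Among the 45 partners these were btl, with 5.42% of its exon length, and Btk29A, with 0.853%. Among the markers the largest share was 27.9%, in the neuronal gene elav. The testis marker janB followed at 18.8%, the hemocyte marker srp at 16.5% and the neuronal marker Syx1A at 10.7%.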
